A study of Mus musculus with 2 samples.

Results

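Heat shock proteins are molecular chaperones, which bind unfolded proteins and help them to fold, to be rebuilt or to be degraded. HSP70 proteins do this by ATP-driven cycles that are started by J-domain proteins (the Dnaja, Dnajb and Dnajc genes), HSP90 proteins act on nearly folded clients such as kinases and steroid receptors, and small heat shock proteins hold aggregating proteins without ATP. The cytosol, the endoplasmic reticulum (ER) and mitochondria each have their own set, and the genes of the first respond mainly to the heat shock factor HSF1 while those of the ER respond to the unfolded protein response. In skin, several chaperones are induced by heat, ultraviolet light and keratinocyte differentiation.

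The chaperone genes described here were the single-symbol array genes of the Hspa, Hspb, Hspd, Hspe, Hsph, Hsp90, Dnaja, Dnajb and Dnajc families together with Bag3 and Stip1, without Hspbp1 and Hspbap1. The rule uses gene symbols and no measured value, though it was set with earlier results of these data known. This gave 68 genes of 22180 measured, read by 76 probes. Hsf1, Hsp90ab1 and Dnaja1 are not analysed here. The dorsal skin came from female mice of the dermatitis-prone inbred strain NC/Nga, aged 13 weeks, and 6 weeks at entry. Their dermatitis had been induced by an ointment of Dermatophagoides farinae (house dust mite) body extract applied 2 times a week for 6 weeks. In the ZAG group, recombinant ZAG (zinc-alpha-2-glycoprotein, a secreted protein known for mobilising lipid) was applied to the skin 2 times a week for 6 weeks, at 1 µg/mL per the series design text, and the control group had the same dermatitis without it. All samples therefore carry the dermatitis, and skin without it is not part of the comparison. The design text names 3 mice per group, but the data hold 1 array for ZAG and 1 for control, and the sources used here do not say whether an array is 1 mouse, a pool or a mean.

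With 1 array per group there is no replicate error and no test, and every difference below is ZAG minus control on the deposited log2 scale and describes these 2 arrays. As a scale for probe error only, the differences (ZAG minus control) of probes that read 1 gene varied within the gene. Their SD was 0.244 over 591 genes, and it does not describe the levels that the probes read. Counts use the 11090 genes whose level, averaged over the 2 arrays, reached the median of all genes (3.87). A member below a background gauge of 3.15 (the 95th percentile over the receptor genes of smell and pheromone sensing, which skin should hardly express) on both arrays is given no fold. In whole skin, fewer cells of a type and less RNA per cell cannot be told apart. Keratinocyte markers read as skin, with Krt10 at 12.16 in the ZAG array and 12.15 in the control array, and Flg at 10.20 in ZAG and 10.39 in control. They were not equal between the arrays, since 6 of the 7 measured were lower in ZAG, with Krt14 at -0.73 and Dsg3 at -0.68.

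The chaperone set as a whole differed little between ZAG and control skin, with positive medians in the cytosolic classes and medians near 0 in the ER and mitochondrial classes. A further list of 13 mitochondrial protein quality control genes, described below, had a median of 0.18. The class medians therefore do not show a difference between compartments. Of the 68 genes, 53 were at or above the median level, 15 were below it and 10 of these 15 were below the gauge on both arrays. Among the 53, 33 were higher in ZAG and 20 lower, where 52.3% of all genes at that level were higher and 47.6% lower. Their median difference was 0.09, against 0.02 for all genes at that level. A difference of at least 1.2-fold (0.26 on the log2 scale, near the probe SD) was reached upwards by 13 members, or 24.5%, where 17.7% of all genes were that much higher, and downwards by 3 members, or 5.66%, where 18.9% of all genes were that much lower. After loess scaling the share upwards was 17.0% of members, against 15.1% of all genes. At 1.5-fold, 1 member was higher and 2 were lower, against 2.48% and 5.08% of all genes. No member reached 2-fold in either direction, where 0.271% of all genes were higher and 1.15% lower by that much. The SD of the difference was 0.251 over the 53 members and 0.353 over all genes at that level, a narrower band for the members than for genes in general.

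**Figure D1:**
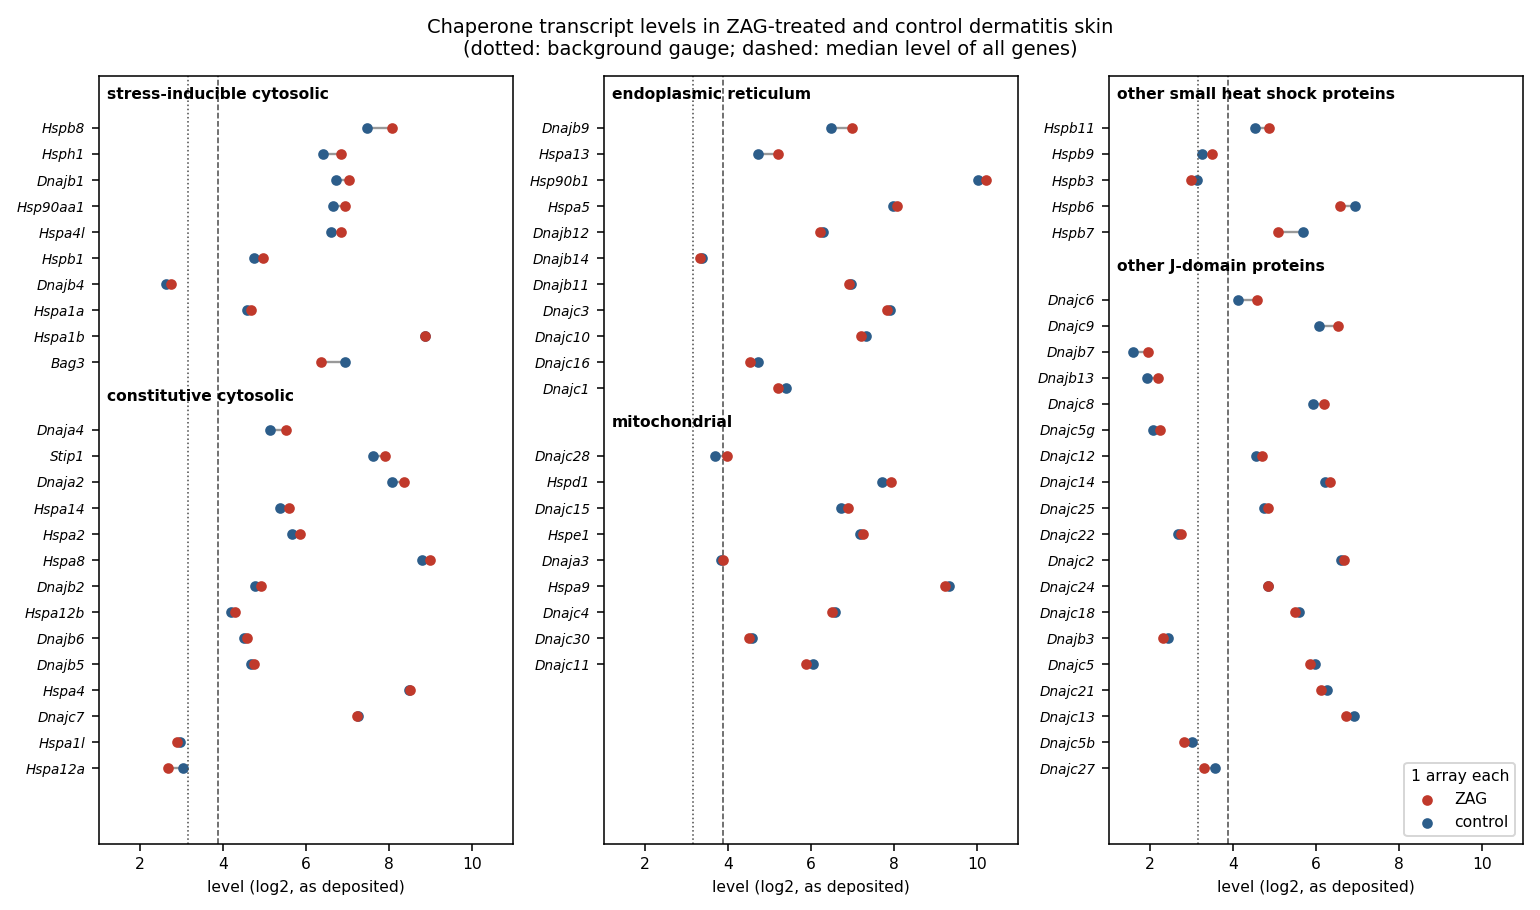
Level of each chaperone gene (log2 as deposited, x axis) in the ZAG array (red) and the control array (blue), by class, with genes ordered within a class from the largest positive difference to the largest negative. Dotted lines mark the background gauge of 3.15 and dashed lines the median level of 3.87, and most pairs of points lie close together, with wide pairs for Hspb8, Bag3 and Hspb7.

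The members are grouped here by compartment and role, in classes that were set with earlier results of these data known. The promoters below are shown because cytosolic and ER chaperone genes are known to follow different stress responses, that of HSF1 and the unfolded protein response. They are taken from RefSeq (GRCm38.p6), each running from 250 bases before to 50 bases after an annotated gene start, and 56 of the 68 members had one or more such windows. A motif for each response was searched by letters on both strands. The heat shock element, the binding motif of HSF1, was searched as GAANNTTCNNGAA, and overlapping matches were allowed. The ER stress element of the unfolded protein response was searched as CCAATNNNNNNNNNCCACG. Capitals mark the matched letters. The Hsph1 window lies at chr5:149636266-149636565 on the minus strand, with its match after the annotated start. The Hspe1 window lies at chr1:55087898-55088197 on the plus strand and also covers the start region of Hspd1, which is read from the other strand, so that the same pair of overlapping matches stands in both genes' windows. The Hspa5 window lies at chr2:34771840-34772139 on the plus strand and the Hsp90b1 window at chr10:86705395-86705694 on the minus strand.
Hsph1: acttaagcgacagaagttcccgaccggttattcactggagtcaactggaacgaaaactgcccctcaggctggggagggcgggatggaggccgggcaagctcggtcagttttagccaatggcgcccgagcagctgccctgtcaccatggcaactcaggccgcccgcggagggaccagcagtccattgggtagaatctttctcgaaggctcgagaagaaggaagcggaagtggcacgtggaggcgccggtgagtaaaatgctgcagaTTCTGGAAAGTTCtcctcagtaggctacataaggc
Hspe1: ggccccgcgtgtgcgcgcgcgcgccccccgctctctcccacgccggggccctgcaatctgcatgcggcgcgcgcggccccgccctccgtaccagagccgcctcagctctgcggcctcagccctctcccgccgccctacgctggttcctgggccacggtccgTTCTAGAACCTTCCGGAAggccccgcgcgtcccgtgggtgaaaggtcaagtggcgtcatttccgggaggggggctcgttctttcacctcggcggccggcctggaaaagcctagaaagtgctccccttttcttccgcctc
Hspa5: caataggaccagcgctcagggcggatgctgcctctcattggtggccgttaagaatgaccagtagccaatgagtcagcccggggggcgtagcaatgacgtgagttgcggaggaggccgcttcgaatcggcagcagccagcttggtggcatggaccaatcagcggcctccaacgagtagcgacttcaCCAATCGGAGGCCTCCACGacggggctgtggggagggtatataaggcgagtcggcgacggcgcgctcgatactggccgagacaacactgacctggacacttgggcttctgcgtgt
Hsp90b1: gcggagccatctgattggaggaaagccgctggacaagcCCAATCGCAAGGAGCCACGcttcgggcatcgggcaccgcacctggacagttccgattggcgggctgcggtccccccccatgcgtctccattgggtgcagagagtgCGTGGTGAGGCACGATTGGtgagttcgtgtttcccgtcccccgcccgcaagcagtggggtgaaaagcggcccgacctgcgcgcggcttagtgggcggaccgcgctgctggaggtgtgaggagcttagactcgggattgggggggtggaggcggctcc

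The heat shock element letters were found for 4 of the 56 members (7.14%), which were Hsph1, Hspd1, Hspe1 and Dnajb6, and for 179 of 27025 genes in the table (0.662%). The ER stress element letters were found for 3 of the 56 (5.36%), all of them ER members, which were Hspa5, Hsp90b1 and Dnajc3, and for 37 of all genes (0.137%). By class, the heat shock element letters were found for 1 of 9 stress-inducible cytosolic members with a window (Hsph1). They were also found for 2 of 6 mitochondrial members and 1 of 13 constitutive cytosolic members. A match describes letters in a window and not a binding site, and genes differ in their number of windows. A window without these exact letters likewise does not show that a gene escapes the response. All 4 members with the heat shock element letters were higher in ZAG skin, with a median difference of 0.15, ranging from 0.06 (Dnajb6) to 0.43 (Hsph1). Only Hsph1 differed by more than the probe SD of 0.244. Hspd1 (0.21) and Hspe1 (0.09) share the same pair of matches and are not separate cases. Whether the letters had a part in these differences was not tested. The other 39 members with a window and a level at or above the median had a median of 0.10, with 24 higher. The 3 members with the ER stress element letters had a median of 0.09, ranging from -0.07 (Dnajc3) to 0.19 (Hsp90b1), and the 40 without them one of 0.10, with 26 higher.

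Among the stress-inducible cytosolic genes, those for HSP110, HSP40, HSP90 alpha and the small heat shock protein HSPB8 were modestly higher in ZAG skin, the inducible HSP70 genes hardly differed, and Bag3 was lower. Of 10 measured genes of the class, 9 were at or above the median level, with 7 higher and 2 lower in ZAG and a median difference of 0.24. At least 1.2-fold higher were 4 of the 9, where 17.7% of all genes were, and at least 1.2-fold lower was 1, where 18.9% of all genes were. Hspb8, whose product works together with BAG3 in the autophagic clearance of damaged proteins, was at 8.07 in the ZAG array and 7.47 in the control array, a difference of 0.61 (1.52-fold), and 2.23% of all genes at that level had a larger positive one. Its partner gene Bag3, which encodes the HSP70 cochaperone that links HSP70 and HSPB8 to autophagy, was at 6.35 in ZAG and 6.95 in control, a difference of -0.59 (1.51-fold lower), and 4.89% of all genes had a more negative one. The pair differed in opposite directions by nearly the same amount, and each gene was read by 1 probe.

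Hsph1, the gene of HSP110, a nucleotide exchange factor that resets HSP70, was at 6.84 in ZAG and 6.41 in control (0.43). Dnajb1, the main inducible J-domain partner of HSP70, was at 7.04 in ZAG and 6.73 in control (0.30). Hsp90aa1, the inducible HSP90 gene, was at 6.94 in ZAG and 6.65 in control (0.29). These 3 genes were higher in the ZAG array by 1.23-fold to 1.35-fold. Hspa4l, a relative of Hsph1, was at 6.84 in ZAG and 6.61 in control (0.24).

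Hspb1, the gene of the keratinocyte small heat shock protein HSP25, was at 4.97 in ZAG and 4.74 in control as the mean of 2 probes (0.23). One of its probes was below the gauge on both arrays, and the other read 7.02 in ZAG and 6.83 in control (0.19). The inducible HSP70 genes showed almost no difference. Hspa1b was at 8.87 in ZAG and 8.88 in control (-0.01), and Hspa1a at 4.67 in ZAG and 4.57 in control (0.11). These 2 genes are near-identical copies, so signal may be shared between them and their separate values are uncertain. Dnajb4, another cytosolic J-domain gene, was below the gauge on both arrays (2.74 in ZAG and 2.61 in control).

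Beside this class, immediate early genes, which are sensitive to how tissue is handled, were lower in ZAG. Of 16 measured, 15 were at or above the median level, and none was below the gauge on both arrays. At least 1.2-fold lower were 8 of the 15, against 18.9% of all genes, and 1 was higher by that much, against 17.7%. The median difference of the 15 was -0.31, and the mean level of the 16 was 5.84 in ZAG and 6.30 in control. Whether handling had a part in any of the differences of this class was not tested.

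**Figure D2:**
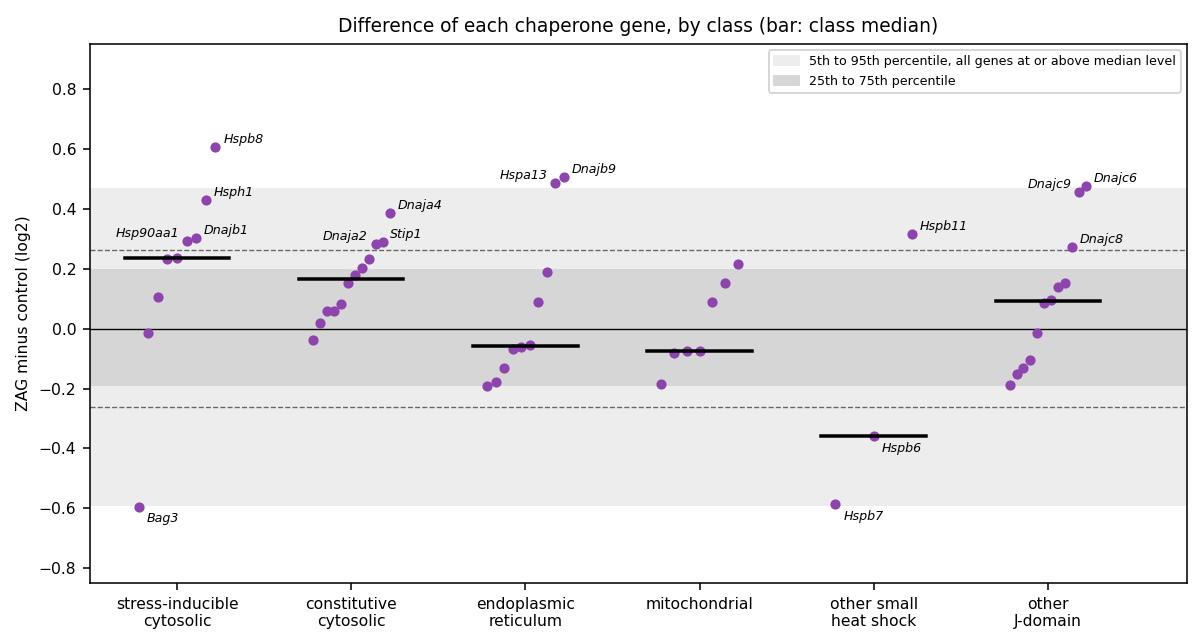
Difference of each chaperone gene at or above the median level (ZAG minus control, log2, y axis) by class (x axis), with a bar at each class median and names for genes at least 1.2-fold different (dashed lines 0.26 above and below 0). Grey bands hold the central 50% and 90% of all genes at that level, and Hspb8, Dnajb9, Hspa13 and Dnajc6 lie above the wider band while Bag3 lies just below it.

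The constitutive cytosolic chaperones were mostly higher in ZAG by small amounts. Of 14 measured, 12 were at or above the median level, 11 of these were higher in ZAG and 1 lower, and the median difference was 0.17, where 52.3% of all genes were higher. At least 1.2-fold higher were 3 of the 12, against 17.7% of all genes. Dnaja4, a cytosolic J-domain gene linked to sterol synthesis, was at 5.52 in ZAG and 5.14 in control (0.39). Stip1, the gene of HOP, the adaptor that hands clients over from HSP70 to HSP90, was at 7.91 in ZAG and 7.62 in control (0.29), and Dnaja2, a J-domain gene that serves constitutive HSP70, was at 8.36 in ZAG and 8.07 in control (0.28). These last 2 stand just past the 1.2-fold line and dropped under it with other scalings of the arrays.

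Hspa8, the gene of the constitutive HSP70 HSC70, was read by 4 probes that all pointed the same way, with differences of 0.12, 0.16, 0.22 and 0.22. Its mean level was 8.98 in ZAG and 8.80 in control (0.18). Copies of Hspa8 exist as processed pseudogenes, and which copies each probe reads is not known here. Hspa4, a constitutive HSP110 relative, was at 8.51 in ZAG and 8.49 in control (0.02). Dnajc7, an adaptor that binds both HSP70 and HSP90, was the only one of the 12 on the lower side (7.22 in ZAG and 7.26 in control). Hspa14 (0.23), the testis-enriched Hspa2 (0.20), Dnajb2 (0.15), the endothelial Hspa12b (0.08), Dnajb6 (0.06) and Dnajb5 (0.06) filled the rest of the class, all within the probe SD of 0.244. Hspa1l and Hspa12a were below the gauge on both arrays.

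In the ER, 2 genes were at least 1.2-fold higher in ZAG, against 17.7% of all genes, and none was lower by that much, against 18.9%. Of 11 measured, 10 were at or above the median level, 4 of these were higher and 6 lower, and the median difference was -0.06, while their mean was 0.06. Dnajb9, the gene of ERdj4, a J-domain cofactor of BiP that restrains the stress sensor IRE1, was at 6.998 in ZAG and 6.491 in control (0.51, 1.42-fold). Hspa13, which encodes the small ER-associated HSP70 STCH, was at 5.20 in ZAG and 4.71 in control (0.49, 1.40-fold). They were the only ER members past 1.2-fold, and 3.93% and 4.42% of all genes at that level had larger positive differences.

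The central ER chaperones were slightly higher in ZAG, within the probe SD of 0.244. Hspa5, the gene of BiP, the ER HSP70 and a standard readout of the unfolded protein response, was at 8.07 in ZAG and 7.98 in control (0.09). Hsp90b1, the gene of GRP94, the ER HSP90, was at 10.21 in ZAG and 10.02 in control (0.19). The remaining ER members were all slightly lower in ZAG. Dnajb11, a BiP cofactor in folding (6.91 in ZAG and 6.97 in control), Dnajc3, the inhibitor P58IPK of eIF2 alpha kinases (7.84 in ZAG and 7.91 in control), and Dnajb12, which acts in ER-associated degradation (6.22 in ZAG and 6.28 in control), differed by at most 0.07 in size. Dnajc10, which encodes the disulfide reductase ERdj5 (-0.13), Dnajc16 (-0.18) and Dnajc1, a BiP cofactor of the ER membrane (-0.19), stood lowest in the class. Dnajb14, of the ER membrane, was below the median level (3.32 in ZAG and 3.38 in control).

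The wider ER folding list pointed both ways. All 18 measured genes were at or above the median level, with 8 higher, 10 lower and a median of -0.02. At 1.2-fold, 11.1% were higher and 11.1% lower, against 17.7% and 18.9% of all genes at that level. At least 1.2-fold higher were Sil1, a nucleotide exchange factor of BiP (0.45), and Sdf2l1, a BiP cofactor (0.32). At least 1.2-fold lower were Hyou1, the gene of the ER HSP110 GRP170 (-0.33), and Atf6, a sensor of the unfolded protein response (-0.32). Of the transcription factor genes of that response, Xbp1 differed by -0.02, Atf4 by -0.16 and Ddit3 by 0.08. Plasma cells are rich in ER chaperones. Of 8 measured B and plasma cell markers, 5 were below the gauge on both arrays (Cd79a, Cd79b, Ms4a1, Derl3 and Tnfrsf17), Jchain was 0.52 higher in ZAG, and the mean level of the list was 3.39 in ZAG and 3.23 in control. Their part in the result was not tested.

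Mitochondrial chaperone genes showed no difference of 1.2-fold in either direction at or above the median level. Of all genes at that level, 17.7% were that much higher and 18.9% that much lower. Of 9 mitochondrial members measured, 7 were at or above the median level, with 3 higher, 4 lower and a median of -0.08. A count over 7 genes says little. The median of the class has no stable sign, since it was 0.045 over all 9 members and 0.0058 with the brightest probe per gene, and the mean was 0.0054. Hspd1, the gene of the HSP60 chaperonin, was at 7.92 in ZAG and 7.71 in control (0.21). Hspe1, which encodes its HSP10 lid and shares the start region printed above, was at 7.26 in ZAG and 7.17 in control (0.09). Hspa9, the gene of mortalin, the HSP70 that pulls proteins into mitochondria, was at 9.24 in ZAG and 9.32 in control (-0.08). Dnajc15, a J-domain gene of the import motor, was at 6.89 in ZAG and 6.73 in control (0.15), whereas Dnajc11, of the cristae-shaping complex, was at 5.87 in ZAG and 6.05 in control (-0.18). Dnajc4 (-0.08) and Dnajc30 (-0.08) were close to 0.

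Below the median level, Dnajc28 was at 3.98 in ZAG and 3.69 in control (0.30). Dnaja3, the gene of the mitochondrial J-domain protein TID1, had 3 probes, of which the only bright one read 6.03 in ZAG and 5.90 in control (0.13). It lay just under the level limit (by 0.03) because the other probes were dim, and Hspa12b was the nearest member above it (by 0.36). Of 13 further genes of mitochondrial protein quality control, not matched by the chosen symbols, 10 were higher in ZAG (52.3% of all genes were), 6 were at least 1.2-fold higher (17.7% of all genes), none was lower by that much (18.9% of all genes), and the median was 0.18. The largest of these were Hscb, a J-domain cochaperone of iron-sulfur cluster assembly (0.44), and Clpx, the ATPase of the ClpXP protease (0.43). At the other end, the protease genes Afg3l2 and Lonp1 differed by -0.10 and -0.08.

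Among the small heat shock proteins, the muscle-enriched Hspb6 and Hspb7 were lower in ZAG, whereas Hspb8, which muscle also expresses, and Hspb1 were higher. Hspb7, the gene of a cardiovascular and skeletal muscle chaperone of filamin, was at 5.09 in ZAG and 5.68 in control (-0.59), and 5.02% of all genes had a more negative difference. Hspb6, the gene of HSP20, a regulator of smooth muscle relaxation, was at 6.57 in ZAG and 6.93 in control (-0.36). Hspb3, also of muscle, was below the gauge on both arrays (2.98 in ZAG and 3.12 in control).

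Beside these genes, skeletal muscle markers pointed mostly the other way. Of 14 measured, 12 were higher in ZAG, where 52.3% of all genes were, and 10 were at least 1.2-fold higher, where 17.7% were. The median was 0.56, none was below the gauge, and the mean level was 7.42 in ZAG and 7.04 in control. The largest positive differences were those of Myh4 (1.59) and Pvalb (1.12). Lower in ZAG, as Hspb6 and Hspb7 were, were only the myosin genes Myh2 (4.42 in ZAG and 6.11 in control) and Myh1 (6.29 in ZAG and 7.21 in control). Whether the fibre composition of the sampled muscle had a part in the Hspb6 and Hspb7 values was not tested. Cryab, the alpha-B-crystallin gene and a close relative outside the chosen families, was at 5.37 in ZAG and 5.22 in control (0.16). Hspb11, which encodes an intraflagellar transport protein of cilia and not a classical chaperone, was at 4.86 in ZAG and 4.54 in control (0.32). Hspb9, known from testis, was between the gauge and the median level (3.48 in ZAG and 3.25 in control).

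The remaining J-domain proteins serve special tasks, and 12 of 19 measured were at or above the median level, with 7 higher in ZAG, 5 lower and a median of 0.09. Dnajc6, the gene of auxilin, which uncoats clathrin vesicles, was at 4.59 in ZAG and 4.11 in control (0.48). Dnajc9, the gene of a histone chaperone that acts with HSP70, was at 6.52 in ZAG and 6.06 in control (0.46). Dnajc8, of the spliceosome, was at 6.20 in ZAG and 5.93 in control (0.27). These 3 of the 12 were at least 1.2-fold higher, against 17.7% of all genes, and none was lower by that much, against 18.9%. Beside Dnajc9, cell cycle markers pointed both ways, with Pcna at 0.18, Cdk1 at 0.14, Mki67 at -0.37 and Mcm2 at -0.38, a list median of -0.03 and mean levels of 6.54 in ZAG and 6.60 in control. None of the 7 measured was below the gauge on both arrays, and their part in the Dnajc9 value was not tested.

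The other members of the class at or above the median level ranged from 0.15 in Dnajc12 to -0.19 in Dnajc13, a gene of endosomal sorting. Dnajc5, the gene of the synaptic vesicle chaperone CSP alpha, was at 5.85 in ZAG and 5.98 in control (-0.13), and Dnajc21, of ribosome assembly, at 6.11 in ZAG and 6.26 in control (-0.15). Dnajc2, the ribosome-bound J-domain gene, differed by 0.09, Dnajc14 by 0.14, Dnajc25 by 0.10, Dnajc24, of diphthamide synthesis, by -0.01 and Dnajc18 by -0.11. Dnajc27 was between the gauge and the median level (3.29 in ZAG and 3.56 in control). The 6 genes below the gauge on both arrays were Dnajb3, Dnajb7, Dnajb13, Dnajc5b, Dnajc5g and Dnajc22.

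**Figure D3:**
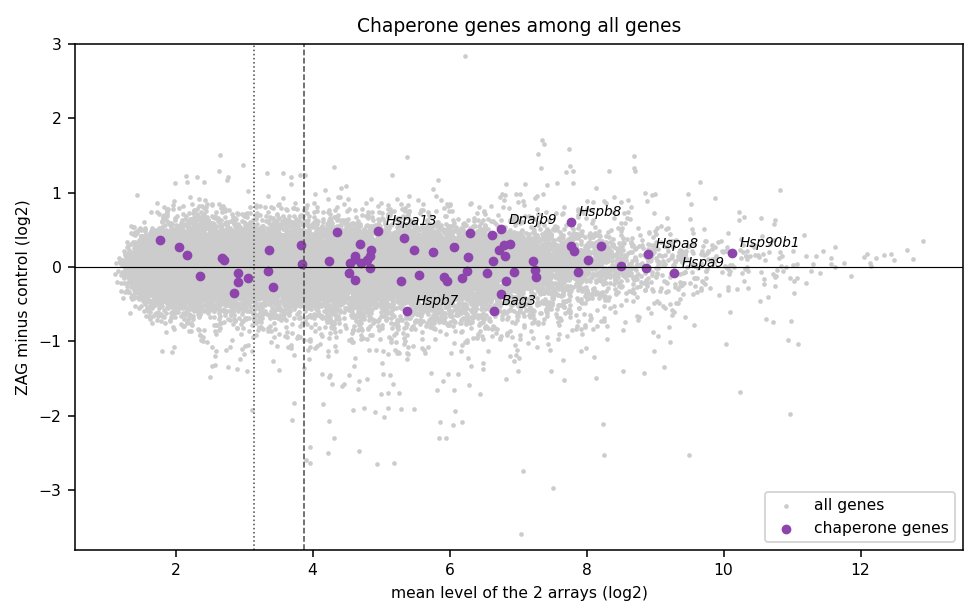
Difference (ZAG minus control, log2, y axis) against the mean level of the 2 arrays (log2, x axis) for all 22180 genes (grey) and the 68 chaperone genes (purple). The dotted line marks the background gauge and the dashed line the median level, and the chaperone genes lie between -0.59 and 0.61.

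A further list held cytosolic cochaperones not matched by the chosen symbols, the heat shock factor genes Hsf2 and Hsf4, the factor-binding gene Hsbp1 and Cryab. All 24 measured were at or above the median level, with 18 higher in ZAG and 6 lower, where 52.3% of all genes were higher. Of these, 7 were at least 1.2-fold higher, against 17.7% of all genes, none was lower by that much, against 18.9%, and the median was 0.15. Hsf2, the gene of a relative of HSF1, was among the 7 (0.53) and Hsf4 was not (0.25). Chordc1, an HSP90 cochaperone gene known as heat-inducible, was at 7.25 in ZAG and 6.62 in control (0.63). Ttc1, an adaptor gene with tetratricopeptide repeats, was at 5.99 in ZAG and 5.39 in control (0.59). On the lower side, the myosin chaperone gene Unc45a differed by -0.21 and the BAG6 cofactor gene Sgta by -0.15. All 8 measured subunits of TRiC, the cytosolic chaperonin that folds actin and tubulin, were higher in ZAG, with a median of 0.17, but only Cct4 passed 1.2-fold (0.43), where 17.7% of all genes did, and Cct3 (0.01) and Cct2 (0.04) were at the bottom.

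Other cell types also differed between the 2 arrays and stand beside all of these values. Neutrophil markers had a median of -1.44 over the 6 that reached the median level, with Ly6g below the gauge on both arrays and mean levels over 8 genes of 4.70 in ZAG and 6.09 in control. Macrophage markers had a median of -0.66 over 8, with mean levels of 6.41 in ZAG and 7.11 in control, and fibroblast markers a median of -0.41 over 6, with 9.63 in ZAG and 10.07 in control. Keratinocyte markers had a median of -0.18 over 7, with 9.90 in ZAG and 10.19 in control. Hair shaft keratin genes had a median of 0.59 over 8, with 9.14 in ZAG and 8.53 in control, and adipocyte markers one of 0.42 over 6, with 7.40 in ZAG and 6.96 in control. The part of cell composition in the chaperone differences was not tested.

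**Figure D4:**
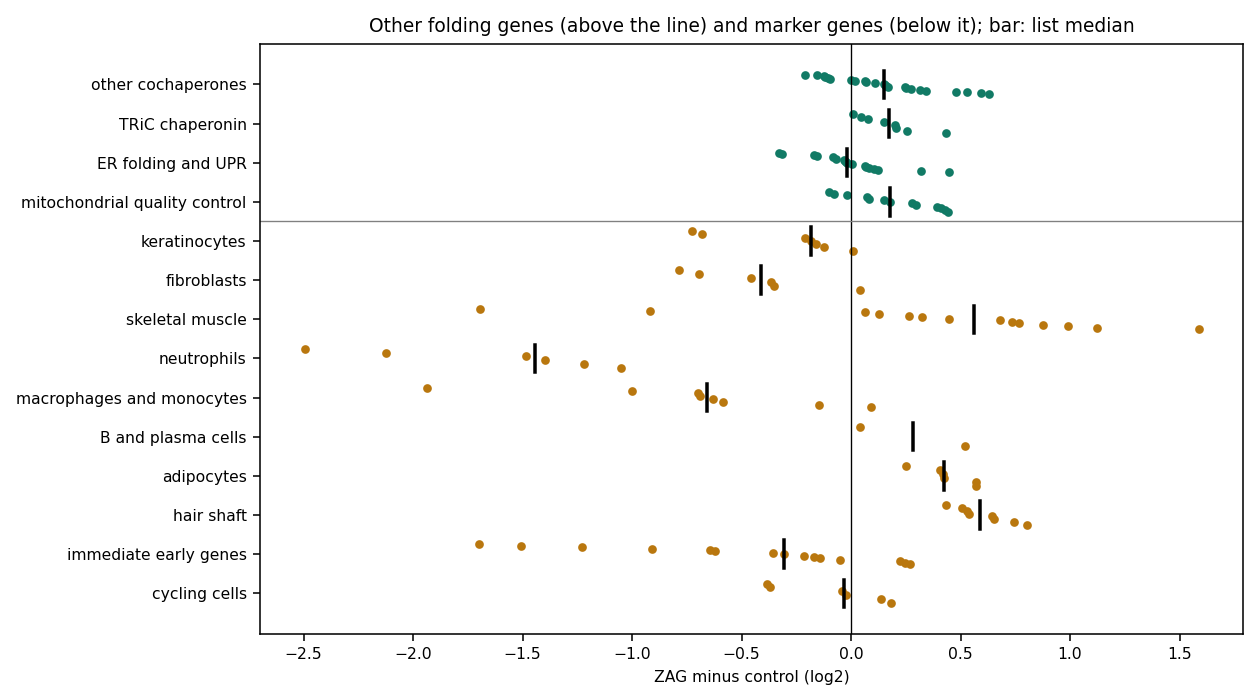
Difference of each gene at or above the median level (ZAG minus control, log2, x axis) for other folding genes (green, above the horizontal line) and marker genes (orange, below it), with a bar at each list median (y axis: lists). The folding lists have medians between -0.02 and 0.18, and the marker lists spread from -1.44 for neutrophils to 0.59 for hair shaft.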

How the data were processed

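Transcript levels were measured on Affymetrix arrays with biotin-labelled sense cDNA, per the labels' protocols. The authors' deposited table holds log2 values, a scale inferred from their range (0.866 to 13.19 in ZAG and 0.889 to 12.75 in control). The sources used here do not give the background correction, normalization or software behind them, and no detection calls were used. The platform annotation gave 1 symbol for 23521 of 33793 probes, several for 1814 and none for 8458, and the first were averaged per gene (22180 genes, 1082 with several probes). All 68 members matched a RefSeq gene identifier (GRCm38.p6) with the same symbol. No difference was tested, since there is 1 array per group, and the number of arrays limits the precision. Members, lists and the rule for named genes (all stress-inducible, ER and mitochondrial members, the other members at least 1.2-fold different, and the extremes of each further folding list) were chosen with earlier results of these data known, and further members are named to account for all. Class labels are textbook roles, but a gene with several roles was placed in 1 class, and the class medians and counts depend on such placements. Procedures were tested on simulated data. Alternatives were median centring, quantile normalization, loess (span 0.3), the brightest probe, other level filters and folds, and means. The software was pandas 2.3.3 with numpy 2.4.6 for the tables, statsmodels 0.14.6 for loess and matplotlib 3.10.9 for figures, all under Python 3.11.15.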

Additional observations from a re-analysis of the deposited data

How the results depend on the processing

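With each array centred on its median, quantile normalized or fitted by loess, 9 to 12 members were at least 1.2-fold higher (13 as deposited) and 3 lower, and none of the 16 changed direction. The share of members higher was 18.9% after centring, 22.6% after quantile normalization and 17.0% after loess, against 15.3%, 17.4% and 15.1% of all genes, so its excess over all genes is small under centring and loess. Dnaja2 fell short of 1.2-fold under all 3 of these scalings, Stip1 and Dnajc8 under median centring and loess, and Hsp90aa1 under loess. The fold sets the counts by construction, with 1 higher member at 1.5-fold, 0 higher at 2-fold and 0 lower at 2-fold. With no filter on level, 16 members were higher and 5 lower, since dim genes enter, against 16.4% and 16.5% of all genes. The ER median turned to 0.0589 as a mean. The mitochondrial median turned to 0.0058 with the brightest probe, to 0.045 with members above the gauge and with no filter, and to 0.0054 as a mean, so neither class has a direction. The stress-inducible and whole-set medians kept their sign in every alternative run. No paired analysis was possible because each group has 1 array. Members near the gauge read partly background.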

Other observations

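Besides the 76 probes used, 15 probes with several gene symbols carried a symbol of these families among them. Their differences (ZAG minus control) ranged from -0.17 to 0.41 with a median of 0.12, and their genes are not named because the probes cannot be assigned to 1 gene. By family, the 12 HSP70 and HSP110 genes at or above the median level had a median difference of 0.14 with 10 higher in ZAG. The 21 Dnajc genes had one of -0.07 with 13 lower. Of all genes at that level, 52.3% were higher and 47.6% lower. The 7 Dnajb genes had a median of 0.06 with 5 higher. The 5 small heat shock protein genes, Hspb11 among them, had a median of 0.23 and a mean of 0.04, with 3 higher. Of these 5, 2 (40%) were at least 1.2-fold higher and 2 (40%) that much lower, against 17.7% and 18.9% of all genes. Both genes at that level were higher in the HSP90 (median 0.24), chaperonin (0.15) and Dnaja (0.34) families. Differences between families were not tested.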
